A study of Mus musculus with 6 samples.

Results

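The genes described here encode the C-type natriuretic peptide pathway and the cGMP-dependent protein kinases. They are the ligands *Nppc* and *Ostn*, the receptors *Npr1*, *Npr2* and *Npr3*, and the kinases *Prkg1* and *Prkg2*. These 7 genes, of the 23159 in the count table, were chosen by name and not by their values. RNA was sequenced from label-retaining chondrocytes (LRCs), which are slow-cycling and keep a nuclear green label, and from non-LRCs, which have diluted that label through division. The question was which genes differ between slow-cycling cells of the resting zone and the other chondrocytes of the same growth plates. Both groups came from Col2-Q mice, which are homozygous for Col2a1-tTA, TRE-H2B-GFP at the *Col1a1* locus, Col2a1-creER and R26R-tdTomato, the Col2a1-tTA transgene lying at *Peli2*. In these mice the *Col2a1* promoter drives both tTA and creER, so that the label is made in cells in which this promoter is active.

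All mice were given doxycycline from P21 to P49, a chase of 4 weeks in which tTA no longer drives new H2B-GFP. They were given tamoxifen at P46 and P47 and were analysed at P49. CD45-negative cells of the distal femur and proximal tibia growth plates were sorted as H2B-GFP(high) tdTomato+ for LRCs and as H2B-GFP(mid-low) tdTomato+ for non-LRCs, about 10000 and 50000 cells per library. The cells of several littermates were pooled in each of 3 experiments and sorted into a pair of libraries, 1 of each group, so the 6 libraries are compared within experiments.

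C-type natriuretic peptide, the product of *Nppc*, binds the receptor NPR-B, encoded by *Npr2*, whose intracellular part is a guanylyl cyclase that makes cGMP. In growth plate chondrocytes cGMP activates the type II cGMP-dependent kinase, encoded by *Prkg2*, and the pathway opposes the MAP kinase branch of FGFR3 signaling. Loss of the peptide, of NPR-B or of the type II kinase shortens the long bones of mice.

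Total counts per library lay between 18943789 and 129559872, and the LRC library of experiment 2 was the shallowest, with 1731 of the 13728 tested genes at 0 counts against 4 to 365 in the others. Levels are given as CPM, counts per 1000000 of a library after TMM normalization. The 10 chondrocyte markers, led by *Col2a1*, were all tested, with 0 of 10 called at an adjusted p below 0.05. They summed to between 81036 and 223576 CPM in LRCs and, in non-LRCs, between 133445 and 230425 CPM. Of the 10, 9 had a negative log2 fold change of LRC over non-LRC, down to -1.01 for *Snorc*, and *Sox9* a positive one of 0.46. Of all 13728 genes tested, 7690 had a negative one. Of 4 markers of the resting zone, in which LRCs lie, 3 were called higher in LRCs. The list, led by *Spon1*, summed to between 708 and 1183 CPM in LRCs against 143 to 259 CPM in non-LRCs. The study named *Gas1* and *Spon1* as markers from these same libraries, so their calls are not independent evidence. Of the markers known before, *Pthlh* was called and *Sfrp5* was not, at a log2 fold change of 1.26 (edgeR, adjusted p = 0.083). Endothelial markers, led by *Vwf* at no more than 1.51 CPM, summed to at most 3.63 CPM. In that list *Cdh5*, *Kdr* and *Emcn* were at 0 in all 6 libraries. Skeletal muscle markers, led by *Tnnt3*, and erythroid markers, led by *Beta-s* (*Hbb-bs*), summed to at most 14.0 and 9.26 CPM. Osteoblasts and osteocytes show some H2B-GFP without tTA, and their markers, led by *Ibsp*, summed to between 131 and 299 CPM in LRCs and, in non-LRCs, between 133 and 428 CPM. Of 8 such markers, 7 were tested and 1 was called, *Col1a1*, which encodes the main collagen chain of bone and whose locus holds the TRE-H2B-GFP cassette in these mice. It was at 154, 53.0 and 113 CPM in LRCs, against 33.8, 8.20 and 23.3 CPM, a log2 fold change of 2.38 (edgeR, adjusted p = 0.0151). *Dmp1* was at 3.8, 3.2 and 6.3 CPM in LRCs, against 0, 1.8 and 1.5 CPM. It was not called, at a log2 fold change of 2.94 (edgeR, adjusted p = 0.44). The other 5 of the 7 had a negative value, and *Sost* was at 0 in all libraries.

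Among the 7 genes, only *Npr2* was called in edgeR's paired quasi-likelihood test, and it was higher in LRCs. *Prkg2* was the most abundant of the 7 in both cell groups, and its level was slightly lower in every LRC library without passing the test. *Npr3* and *Prkg1* varied more among experiments than between the groups. *Nppc*, *Ostn* and *Npr1* had too few counts to be tested, so that 4 of the 7 genes passed the filter on low counts. Over all 13728 genes tested, 1.28% were called, 0.903% higher and 0.379% lower in LRCs. Of the 4, *Npr2* and *Prkg2* had an unadjusted p under 0.05, as did 18.4% of all genes, had groups that did not overlap, as did 18.7%, and moved the same way in all 3 experiments, as did 46.4%. In bulk libraries, fewer cells of a type and less RNA per cell cannot be told apart.

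**Figure D1:**
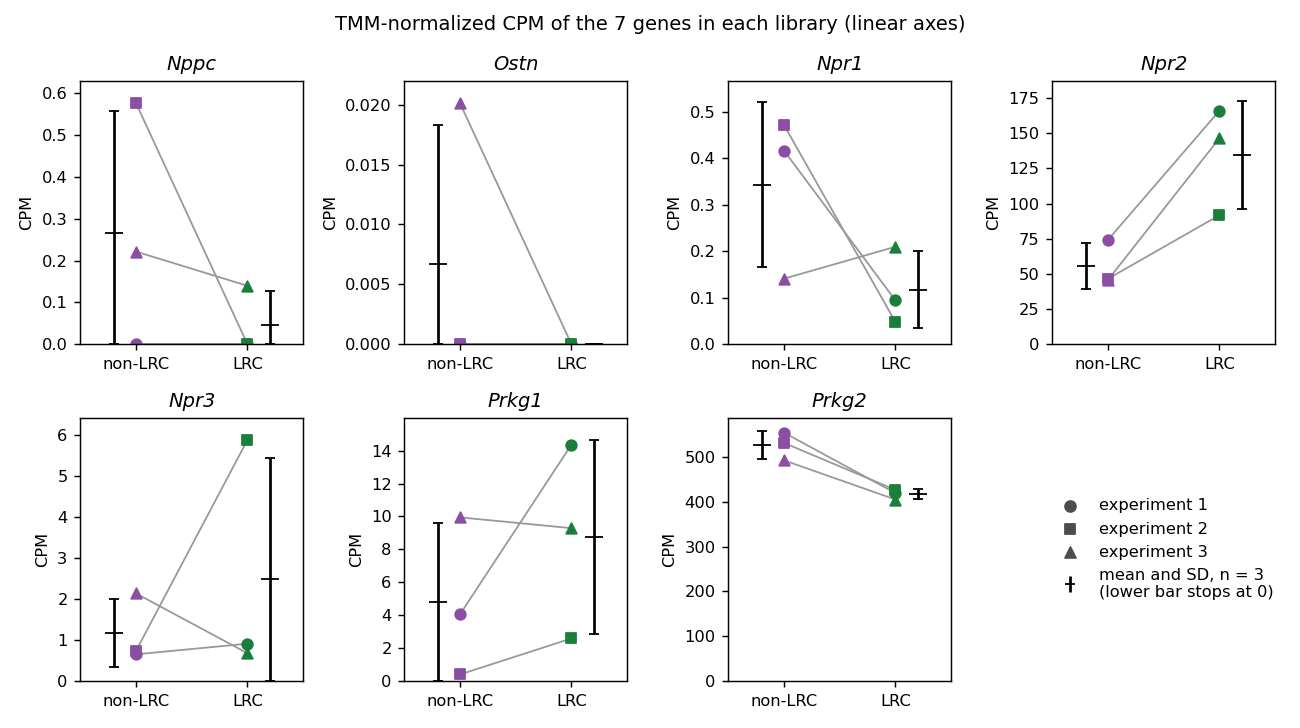
TMM-normalized CPM of the 7 genes (linear axes, 1 scale per gene) in non-LRC and LRC libraries. Points are libraries, lines join the 2 libraries of an experiment, and bars are the mean and SD of 3 libraries; the 3 lines of *Npr2* rise toward LRCs, the 3 lines of *Prkg2* fall, and those of *Npr3*, *Prkg1* and *Npr1* cross.

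The ligand genes were at or near 0. *Nppc*, which encodes C-type natriuretic peptide, was counted 0, 0 and 6 times in LRCs of experiments 1, 2 and 3, and 0, 22 and 11 times in non-LRCs. These were 0.140 CPM in LRCs of experiment 3, and 0.576 and 0.221 CPM in non-LRCs of experiments 2 and 3. Both libraries of experiment 1, the deepest of the series, held no *Nppc* count, which allows at most 0.0257 CPM for LRCs and 0.0290 CPM for non-LRCs, counting error only. The LRC library of experiment 2 was shallower, and its 0 counts allow up to 0.143 CPM. The groups overlapped. In a fit with no filter on low counts, the log2 fold change of *Nppc* was -2.29 with an SE of 2.52 (edgeR, adjusted p = 0.773), so a difference was not detectable.

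*Ostn* encodes osteocrin, a secreted peptide that binds the clearance receptor NPR-C and so spares C-type natriuretic peptide. It had 1 count in all 6 libraries together, in non-LRCs of experiment 3. The 0 counts of the LRC libraries allow at most 0.0257, 0.143 and 0.0698 CPM in experiments 1, 2 and 3.

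Of the receptors, *Npr2* carried nearly all of the signal. In LRCs its level was 166, 91.7 and 146 CPM in experiments 1, 2 and 3, from 19391, 1919 and 6290 counts. In non-LRCs it was 74.2, 46.5 and 45.7 CPM, from 7664, 1776 and 2272 counts. The lowest LRC library, that of experiment 2, lay above the highest non-LRC library, that of experiment 1, so that the groups did not overlap; LRCs lay above non-LRCs without overlap in 8.41% of all genes tested. LRCs had a mean of 135 ± 38.5 CPM and non-LRCs one of 55.5 ± 16.2 CPM (SD, *n*=3 each). Within experiments the log2 difference was 1.16, 0.98 and 1.68, higher in LRCs in 3 of 3. The fitted log2 fold change was 1.27 with an SE of 0.18, a 2.42-fold higher level with a 95% interval of 1.77 to 3.31 (edgeR, adjusted p = 0.0454). By p it ranked 137 among the genes tested.

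The call of *Npr2* lay close to the threshold. Without the pairing by experiment its log2 fold change was 1.28 and the adjusted p 0.259 (edgeR), and without experiment 1 they were 1.33 and 0.147. With the pairing, it was called by DESeq2 (adjusted p = 9.2e-08) and by limma-voom (adjusted p = 0.00121). Those tools called 1692 and 1361 genes in all, against 176 in edgeR. *Npr2* lies on chr4:43631935-43651244 (GRCm38, plus strand), with 4667 bases of exon, and overlaps a noncoding antisense gene, *Gm12473*, whose reads cannot be told apart from those of *Npr2* without strand. The same holds for noncoding genes that overlap *Ostn* (*Gm32312*), *Npr1* (*Gm16048*) and *Npr3* (*Gm5144*), members with few counts.

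Most markers of superficial articular and synovial cells moved in the same direction as *Npr2*. Of 6 such genes, led by *Clu*, all were tested, 4 were called higher in LRCs, *Dkk3* was not called at a log2 fold change of 1.81, and *Tppp3* had one of -0.13. The list summed to between 1466 and 3053 CPM in LRCs against 144 to 203 CPM in non-LRCs. None of the 6 was at 0 in all libraries of a group. Of the resting zone markers 3 of 4, and the osteoblast marker *Col1a1*, were called higher in LRCs as well, by the values and with the limit given above. The study used a collagenase protocol meant to free growth plate cells and leave those of the joint surface behind. The part of any of these cells in the level of *Npr2* was not tested.

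*Npr3* encodes NPR-C, the clearance receptor, which binds natriuretic peptides and removes them without making cGMP. Its level was 0.908, 5.88 and 0.675 CPM in LRCs of experiments 1, 2 and 3, from 106, 123 and 29 counts. It was 0.649, 0.733 and 2.13 CPM in non-LRCs, from 67, 28 and 106 counts. The LRC library of experiment 2 was the highest and the others overlapped, with means of 2.49 ± 2.94 CPM for LRCs and 1.17 ± 0.834 CPM for non-LRCs (SD, *n*=3 each). The fitted log2 fold change was 0.58 with a 95% interval of -2.35 to 3.52 (edgeR, adjusted p = 0.834), and without experiment 2 it turned to -0.57 (edgeR, adjusted p = 0.726).

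*Npr1* encodes NPR-A, the guanylyl cyclase receptor of the atrial and B-type peptides. It had 11, 1 and 9 counts in LRCs and 43, 18 and 7 in non-LRCs, that is 0.0942, 0.0478 and 0.210 CPM, against 0.416, 0.471 and 0.141 CPM. The order was lower in LRCs in experiments 1 and 2 and higher in experiment 3. With no filter on low counts the log2 fold change was -1.58 with an SE of 1.82 (edgeR, adjusted p = 0.782).

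The 250 bases before the RefSeq start site (GRCm38.p6) are shown for *Npr2*, the gene that was called, and for *Nppc*, which encodes the ligand of its product and was near 0. They lie at chr4:43631685-43631934 on the plus strand and chr1:86670574-86670823 on the minus strand, and both are written 5′ to 3′ along the gene. Capitals mark matches to common promoter motifs, searched on either strand. The GC box was searched as GGGCGG. The motif bound by nuclear factor Y was searched as CCAAT. The TATA box was searched as TATAAA, the core of SOX sites as ACAAAG, and the cAMP response element as TGACGTCA.
Npr2: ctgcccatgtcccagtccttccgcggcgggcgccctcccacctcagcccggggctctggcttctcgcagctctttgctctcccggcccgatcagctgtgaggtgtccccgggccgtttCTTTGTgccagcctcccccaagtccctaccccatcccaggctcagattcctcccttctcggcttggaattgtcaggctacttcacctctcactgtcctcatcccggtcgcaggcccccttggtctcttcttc
Nppc: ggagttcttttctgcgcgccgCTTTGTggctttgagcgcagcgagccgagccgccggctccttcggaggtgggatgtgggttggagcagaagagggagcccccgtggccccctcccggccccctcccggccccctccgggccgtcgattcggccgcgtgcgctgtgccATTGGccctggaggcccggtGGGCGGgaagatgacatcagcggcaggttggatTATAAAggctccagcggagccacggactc

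The *Npr2* stretch held 1 match, the reverse complement of the SOX core (CTTTGT), whose first base lay at -132 from the start site. The *Nppc* stretch held 4 matches that did not overlap, namely the same SOX core at -229, the nuclear factor Y motif in reverse at -82, a GC box at -62 and a TATA box at -29. Of 32851 RefSeq windows of 300 bases (250 before and 50 after the start), 18.7% held the SOX core, 37.4% the nuclear factor Y motif, 35.7% the GC box, 13.6% the TATA box and 1.79% the cAMP response element. A match to letters is not evidence of a bound site. Over its whole window *Npr2* had 64.0% GC and 13 CG dinucleotides and *Nppc* 69.3% and 29, against medians of 52.7% and 7 over all windows. Of the 7 genes, 5 had a window in the RefSeq table. The window of *Npr1* held 2 GC boxes and 1 nuclear factor Y motif, and that of *Npr3*, at 39.0% GC, held 1 nuclear factor Y motif.

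Of the kinases, *Prkg2* was abundant and steady. Its level was 419.8, 427 and 405 CPM in LRCs of experiments 1, 2 and 3, from 49023, 8932 and 17415 counts. It was 555, 532 and 493 CPM in non-LRCs, from 57315, 20314 and 24499 counts. All 3 LRC libraries lay below all 3 non-LRC libraries, a pattern found in 10.3% of all genes tested. The means were 417 ± 11.0 CPM for LRCs and 527 ± 31.3 CPM for non-LRCs (SD, *n*=3 each), and the log2 difference within experiments was -0.40, -0.32 and -0.28. The fitted log2 fold change was -0.33 with an SE of 0.13, a 1.26-fold lower level in LRCs with a 95% interval of 1.01 to 1.58, and it did not pass the adjusted threshold (edgeR, adjusted p = 0.261). The interval of the log2 fold change, -0.66 to -0.01, does not reach a fold of 2 in either direction.

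Of 7 prehypertrophic and hypertrophic markers, 7 were tested, all 7 had a lower fitted level in LRCs and 3 were called lower. The list, led by *Spp1*, summed to between 733 and 1904 CPM in LRCs and, in non-LRCs, between 1098 and 2852 CPM. Those called were *Mef2c*, *Pth1r* and *Panx3*. *Spp1* was level between the groups, at a fold of 0.998, and *Mmp13* was higher in LRCs of experiment 1. *Ihh*, which marks prehypertrophic cells, was at 0, 0 and 1.09 CPM in LRCs, against 0.929, 1.13 and 8.45 CPM. Its groups overlapped near the floor, and it was not called (edgeR, adjusted p = 0.150). The part of these cells in the level of *Prkg2* was not tested.

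*Prkg1* encodes the type I kinase, best known from smooth muscle and platelets. Its level was 14.4, 2.58 and 9.29 CPM in LRCs, from 1677, 54 and 399 counts, and 4.05, 0.393 and 9.94 CPM in non-LRCs, from 418, 15 and 494 counts. LRCs were higher in experiments 1 and 2, by 1.82 and 2.62 on the log2 scale, while experiment 3 differed by -0.10, and both libraries of experiment 2 were the lowest of their group. The means were 8.74 ± 5.91 and 4.79 ± 4.82 CPM (SD, *n*=3 each), the groups overlapped, and the log2 fold change of 1.45 had a 95% interval of -0.10 to 3.00 (edgeR, adjusted p = 0.298). It was 0.87 without experiment 2 and 2.27 without experiment 3. Smooth muscle and pericyte markers summed to between 553.5 and 1418 CPM in LRCs and, in non-LRCs, between 534.5 and 1353 CPM, with 0 of 6 tested genes called. Most of this was *Cspg4* alone, at 459 to 1368 CPM in LRCs and 453 to 1260 CPM in non-LRCs. *Tagln* was at 13.9 to 85.8 CPM in LRCs and 19.6 to 76.1 CPM in non-LRCs, and *Cnn1* at 3.21 to 8.47 and 2.72 to 8.85 CPM. *Myh11*, which defines smooth muscle, was at 0 to 1.89 CPM in LRCs and, in non-LRCs, 0.262 to 1.30 CPM. *Acta2* was at 0 to 0.372 CPM in LRCs and 0.602 to 1.92 CPM in non-LRCs, and *Des* at 0 to 1.56 and 1.81 to 5.01 CPM. The part of these cells in the level of *Prkg1* was not tested.

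Levels of different genes were set side by side as CPM per kilobase of exon (CPM/kb), with exon lengths from GENCODE. *Prkg2* was the highest in each of the 6 libraries, at 75.5 to 103 CPM/kb, and *Npr2* the second, at 9.80 to 35.6 CPM/kb. Neither range overlapped with that of the next gene. The other 5 genes lay at or below 1.32 CPM/kb, and neighbours in their order did not differ beyond their spread, with *Prkg1* at 0.0362 to 1.32, *Npr3* at 0.0691 to 0.626, *Nppc* at 0 to 0.553, *Npr1* at 0.00999 to 0.0985 and *Ostn* at 0 to 0.0141 CPM/kb.

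The level per length of *Npr2* was 31.4 to 436 times that of *Npr3* in the same library. That of *Prkg2* was 59.1 to 2740 times that of *Prkg1*. Among 13566 tested genes with an exon length, the level per length of *Prkg2* stood between the percentiles 96.2 and 97.5 of the 6 libraries and that of *Npr2* between 74.8 and 92.6, while *Prkg1* stood between 4.11 and 34.8 and *Npr3* between 3.91 and 26.8.

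**Figure D2:**
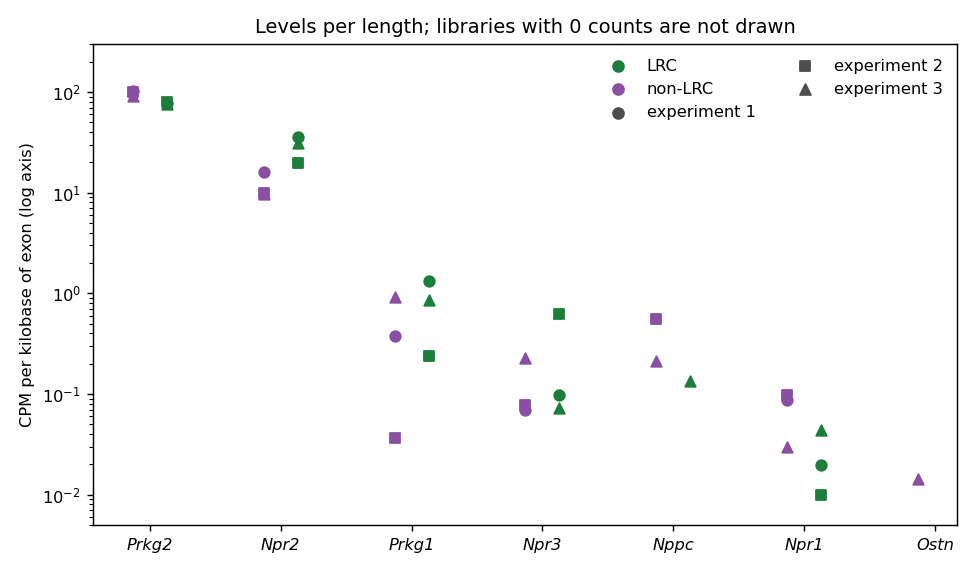
Levels of the 7 genes in CPM per kilobase of exon (log axis), with green points for LRC libraries, purple points for non-LRC libraries and a shape for each experiment. *Prkg2* (75.5 to 103) and *Npr2* (9.80 to 35.6) stand apart from the other 5 genes, whose ranges overlap between neighbours in this order; libraries with 0 counts of a gene are not drawn.

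The genes whose log2 CPM followed a member most closely over the 6 libraries were taken as a description among genes with a mean of at least 10 CPM, with all points sharing library and depth. For each member the top 3 of 7823 or 7824 genes were kept, so a high *r* over 6 points is not evidence of a link. The 6 points include both groups, so a difference between groups shared with the member was part of the choice. *Npr2* was followed by *Prg4*, which encodes the joint lubricant lubricin (Pearson *r* = 0.993), by *Nrp2*, a receptor of semaphorins and VEGF (0.993), and by *Gpc6*, a glypican (0.992). *Prg4* was also higher in LRCs, with a log2 fold change of 5.75 (edgeR, adjusted p = 0.0175), and *Gpc6* with one of 1.03 (edgeR, adjusted p = 0.0489), while *Nrp2*, at 1.19, did not pass (edgeR, adjusted p = 0.0769). *Prkg2* was followed by *P4ha1*, a subunit of collagen prolyl hydroxylase (0.996), by *Smpdl3b* (0.995) and by *Gpr30* (0.988). *Prkg1* was followed by *Atg7* (0.993), *Abcf3* (0.985) and *Lrrk2* (0.983), and *Npr3* by *Mcrs1* (0.994), *Spsb2* (0.989) and *Nudt16l1* (0.978), none of which was called.

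A list of 63 further genes of the pathway was described with the same fit, and 54 of them were tested. One was called, *Nos2*, and it was higher in LRCs. None was called lower, while 9 of 54 had an unadjusted p under 0.05, as did 18.4% of all genes tested. DESeq2 called 5 higher and 2 lower of the 55 with an adjusted p, against 12.3% of all its genes with one. The median log2 fold change was 0.02 over the list and -0.10 over all genes tested, 29 genes had a positive and 24 a negative value, and 12 were higher and 13 lower in LRCs in all 3 experiments, where 46.4% of all genes moved 1 way.

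Of the 6 genes of other ligands and peptide processing, 4 were tested and 0 called, with a median log2 fold change of -0.01. *Nppb*, the B-type peptide, was at 1.59, 4.02 and 2.84 CPM in LRCs and, in non-LRCs, 5.76, 8.20 and 4.13 CPM, with no overlap. Its log2 fold change was -1.14 with an SE of 0.51 (edgeR, adjusted p = 0.309). *Furin*, which cleaves the precursor of C-type natriuretic peptide, was at 169 to 338 CPM in LRCs and, in non-LRCs, 165 to 323 CPM, and its log2 fold change was 0.01 with an SE of 0.13.

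Nitric oxide and the soluble guanylyl cyclases are the other source of cGMP, and 4 of their 7 genes were tested. *Nos2*, the inducible nitric oxide synthase, was at 14.5, 19.1 and 16.7 CPM in LRCs and, in non-LRCs, 0.833, 1.13 and 3.64 CPM. All LRC libraries lay above all non-LRC libraries, and the log2 fold change was 3.47 with an SE of 0.53, an 11.1-fold higher level (edgeR, adjusted p = 0.0489). It did not pass without the pairing (3.17, edgeR, adjusted p = 0.169) or without experiment 1 (3.11, edgeR, adjusted p = 0.179), and it was 4.12 without experiment 3. Of 10 other settings, *Nos2* was called in 8. Leukocyte markers, led by *Cd68*, summed to between 7.39 and 25.2 CPM in LRCs and, in non-LRCs, between 6.58 and 11.1 CPM. Of the 6 listed, 2 were tested and 0 called, and *Ptprc*, which encodes CD45, had 0 counts in 5 of the 6 libraries. *Cd68* was higher in LRCs in 2 of 3 experiments, and in experiment 2 it was at 23.0 against 10.7 CPM. In experiment 2 *Cd3e* had 47 counts in LRCs and 0 in non-LRCs. The part of leukocytes in the level of *Nos2* was not tested.

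*Nos1*, the neuronal synthase, was at 7.67, 0 and 2.26 CPM in LRCs and, in non-LRCs, 12.9, 5.42 and 3.22 CPM, and its log2 fold change was -1.92 with an SE of 1.35 (edgeR, adjusted p = 0.506). Leaving out 1 experiment moved it to between -3.59 (without experiment 1) and -0.64 (without experiment 2, the one with 0 counts). The genes of the main subunits of soluble guanylyl cyclase were nearly absent from the counts, with 5 of *Gucy1a3* and 3 of *Gucy1b3* over all 6 libraries. *Gucy2f* was the 1 tested gene of the 4 other membrane guanylyl cyclases, with a log2 fold change of 0.02.

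All 13 genes of cGMP breakdown and export were tested, 0 were called, and their median log2 fold change was -0.02. *Pde10a*, a phosphodiesterase of cAMP and cGMP, was at 35.8, 15.4 and 20.6 CPM in LRCs and, in non-LRCs, 10.6, 7.04 and 8.11 CPM. The groups did not overlap, and its log2 fold change was 1.42 with an SE of 0.26 (edgeR, adjusted p = 0.0669). *Pde1b*, a calmodulin-dependent phosphodiesterase, was at 15.2, 7.03 and 13.2 CPM in LRCs and, in non-LRCs, 17.6, 22.9 and 19.7 CPM, and its log2 fold change was -0.82 with an SE of 0.36 (edgeR, adjusted p = 0.294).

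Among 19 kinase targets and ion channels, 18 were tested and 0 called, with a median of 0.08. Of the 18, 11 had a positive log2 fold change and 7 a negative one. *Itpr3* was higher in LRCs in all 3 experiments, while its groups overlapped. Its log2 fold change was 0.85 with an SE of 0.17 (edgeR, adjusted p = 0.0808). *Camk2b*, a subunit of calmodulin-dependent kinase II, was at 15.8, 10.4 and 13.8 CPM in LRCs and, in non-LRCs, 35.0, 18.7 and 33.0 CPM. The groups did not overlap, and the log2 fold change was -1.09 with an SE of 0.22 (edgeR, adjusted p = 0.0809). *Camk2g*, another subunit, had a log2 fold change of -1.37 with an SE of 0.73 (edgeR, adjusted p = 0.381), which became -0.55 without experiment 1 and -2.05 without experiment 2.

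All 14 genes of the FGFR3 to MAP kinase branch were tested and 0 were called, with a median of 0.04. *Fgfr3*, the receptor whose signal restrains growth plate chondrocytes, was at 272, 99.7 and 336 CPM in LRCs and, in non-LRCs, 423, 216 and 404 CPM. It was lower in LRCs within each experiment, while the groups overlapped across experiments, and its log2 fold change was -0.67 with an SE of 0.19 (edgeR, adjusted p = 0.151). *Sox9*, the transcription factor that maintains chondrocytes, was at 2280, 1445 and 2341 CPM in LRCs and, in non-LRCs, 1413, 1436 and 1452 CPM, and its log2 fold change was 0.46 with an SE of 0.19 (edgeR, adjusted p = 0.273). In experiment 2 the libraries of *Sox9* were nearly level, and the difference lay in experiments 1 and 3.

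**Figure D3:**
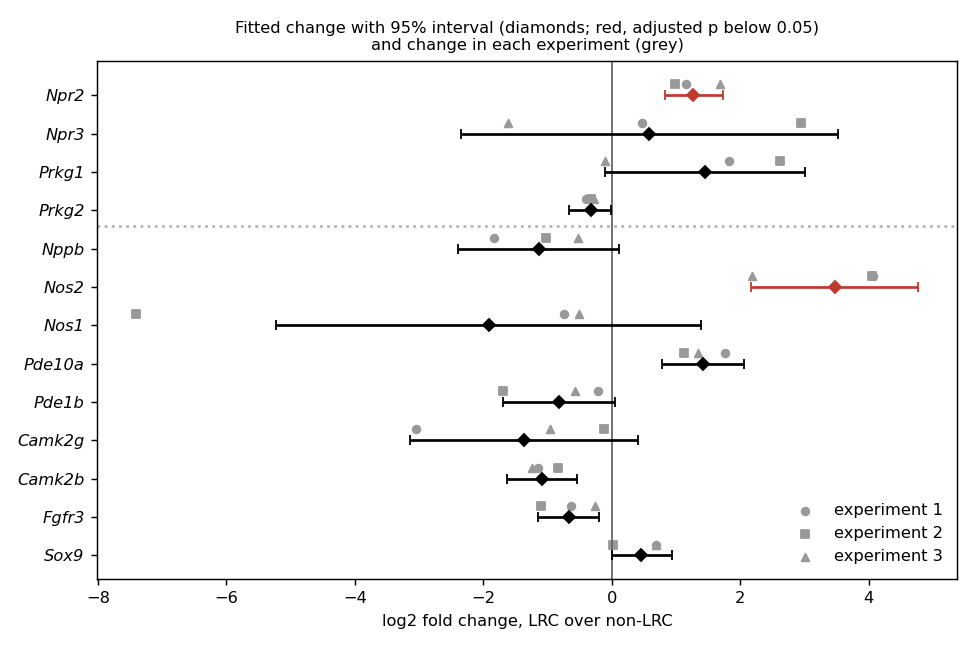
Fitted log2 fold change of LRC over non-LRC (diamonds) with its 95% interval for the 4 tested members (above the dotted line) and for 9 genes of the pathway list, and the difference within each experiment in grey. *Npr2* (1.27) and *Nos2* (3.47), in red, had an adjusted p below 0.05 in edgeR; the grey point of *Nos1* at the far left is experiment 2, whose LRC library had 0 counts.

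Across 11 other settings of the fit, *Npr2* remained higher in LRCs, between 1.09 and 1.42 on the log2 scale, and was called in 9. The setting with a prior count of 2 in the fit left p unchanged, so its calls only repeat those of the paired fit. *Prkg2* stayed between -0.34 and -0.30 and *Prkg1* between 0.87 and 2.27, and neither was called in any of the 11. *Npr3* ranged from -0.57 to 1.76 and was called in none.

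**Figure D4:**
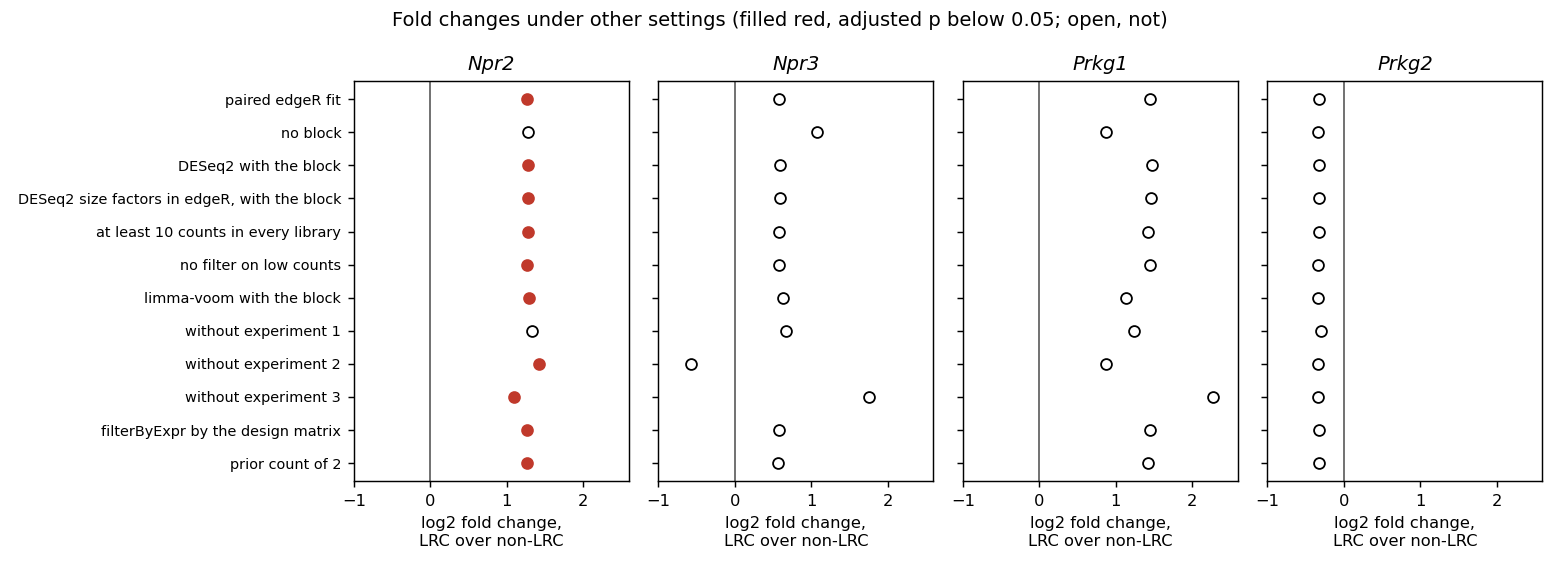
Log2 fold change of LRC over non-LRC of the 4 tested members under the paired edgeR fit and 11 other settings, 1 setting per row. Filled red points had an adjusted p below 0.05; *Npr2* was filled in all settings but 2, and *Npr3* crossed 0 without experiment 2.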

How the data were processed

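RNA of 6 libraries was amplified with the SMARTer kit, which does not mark strand, and libraries were made with Nextera XT. Per the labels and the study's methods, the authors aligned reads to mm10 (GRCm38) with TopHat2 2.0.13 and Bowtie2 2.2.1 and deposited raw counts of non-ambiguous reads per gene from HTSeq, without normalization. The annotation and strand setting are not given in the sources used here. Deposited size-factor-normalized counts and rlog values were not used.

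The counts were fitted in edgeR 4.0.16 on R 4.3.3 (TMM, filterByExpr by group with a minimum count of 10 and a total of 15, quasi-likelihood test with a block for the experiment, prior count 0.125), with Benjamini-Hochberg adjustment over 13728 genes. A gene was called at an adjusted p below 0.05. The block follows the study's own paired model. Deviations from the group means of libraries of the same experiment correlated across genes with *r* of 0.197, 0.288 and 0.336. A prior count of 2 went into log2 CPM. The scripts were tested on simulated data. Alternatives used DESeq2 1.42.0, limma 3.58.1 and other filters, and left out each experiment in turn.

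The members were chosen by name and not by their values. They, the pathway list and the marker lists were nevertheless set with earlier results of these data known. Named genes were the members, every called gene of the pathway list, in each role the 2 genes with the largest fold change among those of 1 direction in every experiment, the 3 genes most correlated with each tested member, and the top gene of each marker list. *Furin*, *Gucy2f*, *Gucy1a3*, *Gucy1b3*, *Itpr2*, *Itpr3*, *Abcc5* and markers set beside a result were named outside this rule, after their values were seen. Exon lengths came from GENCODE on GRCm38, where 20778 symbols matched directly, 1902 through earlier symbols and 479 had no match. Floors from 3 counts cover counting error only. In the paired fit, the 95% intervals and the p-values reflect how the LRC against non-LRC difference varied across experiments of pooled littermates. Their variance estimates also draw on other genes.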

Additional observations from a re-analysis of the deposited data

How the results depend on the processing

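The number of calls depended strongly on the model. Over all genes, 176 were called with the replicate block, 1 without it, 1692 with DESeq2, 1361 with limma-voom, 751 with at least 10 counts in every library, and between 35 and 782 with 1 experiment left out. Of the members, 1 was called with the block and 0 without it, and 0 to 1 with 1 experiment left out, 0 without experiment 1. Of the pathway list, 1 was called with the block, 0 without it, 7 with DESeq2, 6 with limma-voom, 4 with at least 10 counts in every library, and 0 to 5 with 1 experiment left out. Without the block the log2 fold change of *Npr2* was 1.28 (edgeR, adjusted p = 0.259), and over the experiments left out it lay between 1.09 and 1.42. That of *Npr3* reversed to -0.57 without experiment 2, within a range of -0.57 to 1.76. Of 44 alternatives to the 4 members' fold changes, 41 kept the direction and the side of the threshold. They include the prior count of 2 in the fit, which left p unchanged and so could not move a call. *Pde10a* and *Camk2b* were called under 4 of 10 alternatives, *Fgfr3* under 2 and *Sox9* under 1. Genes outside the naming rule were also called, all higher in LRCs. *Itpr3* was called with DESeq2, with limma-voom, with at least 10 counts in every library and without experiment 2. *Abcc5* was called with DESeq2 and limma-voom, and *Itpr2* with DESeq2. The filter by the design matrix, added after seeing the data, tested 14315 genes and called 189. The causes of these differences were not tested. Libraries of 18943789 to 129559872 counts held at most 43 of *Nppc*, *Ostn* or *Npr1*, too few for the main test.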
